A study of Mus musculus and Homo sapiens with 9 samples.

Results

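Of 8 metabolic and antioxidant target genes of the tumour suppressor p53, 5 carried a peak of thymine DNA glycosylase (TDG) and 2 were assigned a peak of p53 itself. The genes were Sesn1, Sesn2, Tigar, Sco2, Fdxr, Ephx1, Nfe2l2 and Gpx1, taken as a list by name out of 21887 protein-coding genes. The list was chosen with earlier results of these data known, so its counts describe these genes and test nothing. TDG peaks were counted for a gene when the summit lay within 1 kb of either gene end or inside the gene. p53 peaks were counted when the summit lay inside the gene or when no other protein-coding gene had an end closer to it. By the same rules, 14.8% of all protein-coding genes had a TDG peak and 0.512% had a p53 peak. All 5 members with a TDG peak also met narrower rules, a summit within 1 kb of a gene end (12.3% of all genes) or of a transcription start (13.6% of the genes with a start in the promoter table). By the rule used for TDG, 1 member had a p53 peak, against 0.292% of all genes.

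The series mapped TDG and p53 on chromatin by immunoprecipitation and sequencing (ChIP-seq) in 9 samples, 6 from the mouse melanoma line B16 and 3 from the human lung cancer line H1299. Peak lists of 2 B16 samples were used here, 1 library each, both from cells of the genotype Tdg HA knockin. In these an HA epitope is joined to the endogenous TDG, so an antibody to HA brings down the enzyme, and a p53 antibody was used for the second library. No treatment is given for either. The other 7 samples were not analysed here. They include 4 B16 controls: input DNA, an IgG pulldown, HA ChIP in WT cells without the tag, and p53 ChIP in Trp53 KO cells. Whether a peak depends on the tag or on p53 was therefore not tested, and the labels do not say whether the knockin line is 1 clone. The lists hold 3410 TDG peaks and 126 p53 peaks and no expression values, so the melanoma identity of the cells could not be checked against marker genes. With 1 library for each antibody there is no replicate, and every value below describes that library. Genes and starts with or without TDG or p53 are those with or without a called peak. Binding too weak to be called was not tested.

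p53 is a transcription factor that is stabilised by damage and stress and switches on arrest, death and repair genes. A further group of its targets adjusts metabolism and limits reactive oxygen, and the 8 genes belong to it. TDG is a repair glycosylase that cuts out thymine mispaired with guanine and oxidised forms of methylcytosine, mainly where C is followed by G (CpG), and so takes part in DNA demethylation.

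The sequence before the transcription start differed among the 8 genes in its CpG content, and 6 windows are shown so that starts with and without TDG can be set side by side. Each line gives the 250 bases before an annotated start, 5′ to 3′ in the direction of transcription, from RefSeq (GRCm38.p6, the coordinates of mm10), with every CpG in capitals. The upstream start of Sesn1, Tigar and Nfe2l2 had a TDG summit within 1 kb, and the second start of Sesn1, Sesn2 and Ephx1 had none.
Sesn1 upstream start (chr10:41810324-41810573, plus strand): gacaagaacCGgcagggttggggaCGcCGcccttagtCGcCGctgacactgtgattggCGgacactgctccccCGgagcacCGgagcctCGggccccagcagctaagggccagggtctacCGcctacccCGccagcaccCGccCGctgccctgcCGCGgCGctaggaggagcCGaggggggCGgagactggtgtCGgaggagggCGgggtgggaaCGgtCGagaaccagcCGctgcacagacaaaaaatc
Tigar (chr6:127109553-127109802, minus strand): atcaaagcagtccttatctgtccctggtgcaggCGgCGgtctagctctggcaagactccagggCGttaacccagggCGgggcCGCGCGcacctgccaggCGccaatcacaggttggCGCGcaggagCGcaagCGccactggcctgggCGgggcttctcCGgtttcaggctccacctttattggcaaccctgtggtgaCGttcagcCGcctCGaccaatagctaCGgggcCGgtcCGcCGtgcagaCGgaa
Nfe2l2 (chr2:75704664-75704913, minus strand): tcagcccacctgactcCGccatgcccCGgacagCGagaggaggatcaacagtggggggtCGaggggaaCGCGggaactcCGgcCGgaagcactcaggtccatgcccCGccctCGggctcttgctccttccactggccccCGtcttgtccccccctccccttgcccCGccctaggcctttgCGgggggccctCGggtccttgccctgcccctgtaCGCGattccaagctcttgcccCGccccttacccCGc
Sesn1 second start (chr10:41887189-41887438, plus strand): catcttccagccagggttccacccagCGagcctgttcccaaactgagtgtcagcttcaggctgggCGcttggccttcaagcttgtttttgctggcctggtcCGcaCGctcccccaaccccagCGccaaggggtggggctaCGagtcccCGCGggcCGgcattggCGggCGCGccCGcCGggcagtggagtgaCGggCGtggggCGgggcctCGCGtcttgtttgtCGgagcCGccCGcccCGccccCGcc
Sesn2 (chr4:132510457-132510706, minus strand): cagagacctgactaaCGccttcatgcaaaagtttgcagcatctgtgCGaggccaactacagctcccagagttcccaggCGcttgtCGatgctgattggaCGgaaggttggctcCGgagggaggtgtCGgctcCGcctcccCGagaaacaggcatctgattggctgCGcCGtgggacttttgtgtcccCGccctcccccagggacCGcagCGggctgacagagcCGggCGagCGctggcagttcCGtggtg
Ephx1 (chr1:181017570-181017819, minus strand): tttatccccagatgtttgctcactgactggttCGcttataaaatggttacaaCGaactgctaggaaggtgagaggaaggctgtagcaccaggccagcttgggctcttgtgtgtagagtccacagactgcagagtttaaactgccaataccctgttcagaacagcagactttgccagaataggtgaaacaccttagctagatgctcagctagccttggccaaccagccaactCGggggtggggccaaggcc

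TDG summits lay within 1 kb of the transcription start in Sesn1, Tigar, Sco2, Fdxr and Nfe2l2, and the Sesn1 peak stopped short of the start. Nfe2l2 had a second TDG peak inside the gene, which made 6 TDG peaks in all. The summits of 5 of the 6 were upstream of the start, and 4 of the 6 peaks spanned it. Sesn2 and Gpx1 had no peak of either kind by these rules. Ephx1 had a p53 peak and no TDG peak, and Nfe2l2 alone had both kinds, which lay far apart. The summit farthest from a gene end among the genes counted by their ends was that of Sesn1, at 253 bases, and the nearest one left out by the 1 kb limit was that of Sesn2, at 5205 bases.

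**Figure D1:**
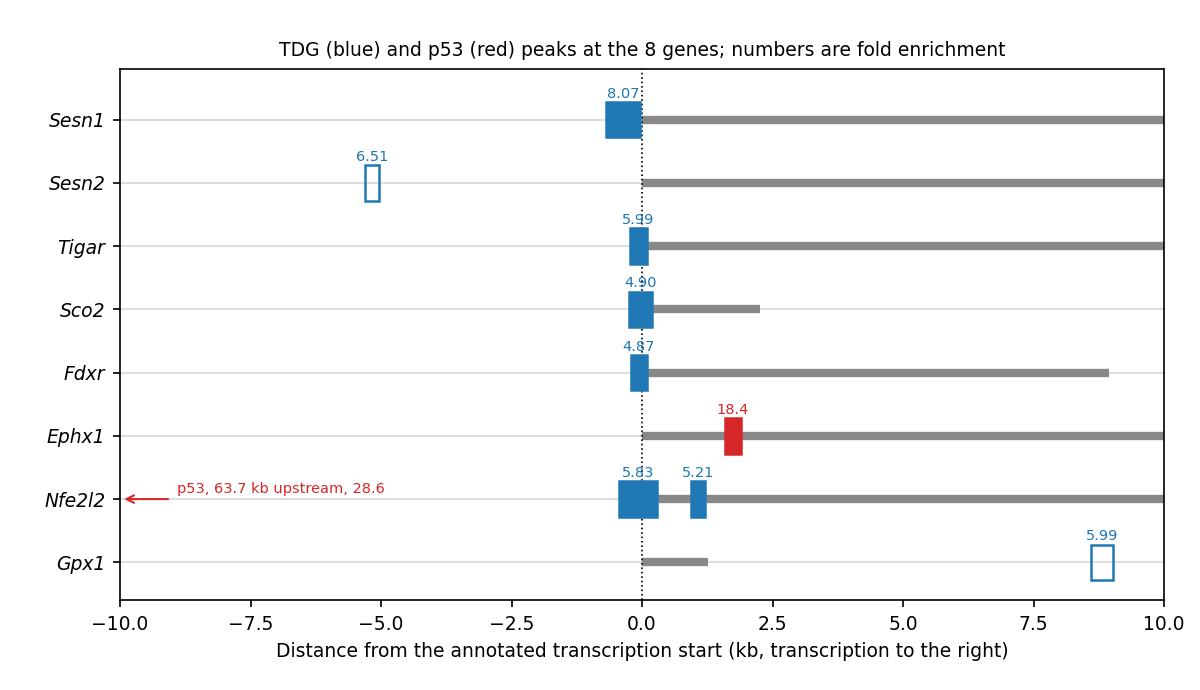
Position of TDG peaks (blue) and p53 peaks (red) around the annotated transcription start of each of the 8 genes, in kb with transcription to the right; grey bars are gene bodies, cut at the right edge, and numbers are the authors' fold enrichment. Filled boxes are peaks counted for the gene and open boxes are the nearest TDG peaks outside the 1 kb limit. TDG peaks span the start in Tigar, Sco2, Fdxr and Nfe2l2, and that of Sesn1 ends just before it. The p53 peak of Ephx1 lies inside the gene, and that of Nfe2l2 lies off the scale.

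The values attached to each peak are the authors' fold enrichment, the summit over the local background, and −log10 q, which measures how unlikely the summit is under that background. The reads at each summit were recovered from these values. In the TDG list 1 read more or less at the genome-wide background moves the fold enrichment by 0.26. The 95% exact Poisson intervals given with the reads cover counting error at the summit only, and take no account of the summit having been picked as the highest point.

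Sestrins sense nutrients and stress and hold back the growth kinase complex mTORC1. Sesn1 (gene ID 140742, chromosome 10, 41810574 to 41908436) had the highest TDG peak of the group, at 8.07-fold with a −log10 q of 14.3. Its summit held 30 reads (interval 20.2 to 42.8), and 9.15% of TDG peaks had this fold enrichment or a higher one. The peak (41809889 to 41810533) ended 41 bases before the Sesn1 start and lay wholly in the 705 bases between Sesn1 and Cep57l1, a gene transcribed in the opposite direction. It was therefore the 1 start peak of the group that did not span the start it was counted for. Its summit was 453 bases from the upper end of Cep57l1, where that minus-strand gene begins. The peak thus counts for Cep57l1 as well. RefSeq gives Sesn1 a second start, just after the window shown for it above. The nearest TDG summit to that start was 77118 bases away, although the 2 windows held 23 and 24 CpG.

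Sesn2 (gene ID 230784, chromosome 4, 132492804 to 132510456) had no TDG summit within 1 kb. The nearest lay 5205 bases upstream of its start (132515495 to 132515771), at 6.51-fold with 24 reads (interval 15.4 to 35.7). That summit was 347 bases from the transfer RNA gene n-TAagc8. The peak left out at Sesn2 thus had a higher fold enrichment than those counted for Tigar, Sco2, Fdxr and Nfe2l2, with intervals that overlapped theirs. The third sestrin gene, Sesn3, carried a TDG peak of 6.11-fold with 32 reads, 89 bases from its start.

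Tigar (gene ID 319801, chromosome 6, 127085116 to 127109552) encodes a phosphatase that removes an activator of glycolysis and diverts glucose into the pentose phosphate pathway, a source of NADPH. Its TDG peak (127109461 to 127109773) stood at 5.99-fold, its −log10 q was 8.19, and 22 reads lay at the summit (interval 13.8 to 33.3). The summit lay 31 bases upstream of the start. Of the TDG list, 47.0% of peaks had this fold enrichment or a higher one, so the peak stood near the middle of the list. TIGAR resembles the bisphosphatase part of the PFKFB enzymes. Of Pfkfb1 to Pfkfb4 only Pfkfb4 had a TDG peak (8.85-fold, in the gene and 133 bases from one of its starts). With so few genes this is near the 14.8% of all protein-coding genes.

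Sco2 and Fdxr serve mitochondrial electron transfer. SCO2 delivers copper to cytochrome c oxidase, and FDXR passes electrons from NADPH to the ferredoxins. Sco2 (gene ID 100126824, chromosome 15, 89371630 to 89373891) had a TDG peak of 4.90-fold (89373695 to 89374135), with a −log10 q of 7.36 and a summit 30 bases upstream of its start. Sco2 overlaps the annotated span of Tymp (89371631 to 89377036), the thymidine phosphorylase gene on the same strand, by all but 1 of its bases, and the summit lies inside Tymp, so the peak counts for the body of Tymp as well. Its local background, 3.915 reads after the scaling given under the processing of the data, was the highest among the peaks of the group. The 25 reads at its summit (interval 16.2 to 36.9, before scaling) therefore gave a lower fold enrichment than the 22 reads at Tigar.

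Fdxr (gene ID 14149, chromosome 11, 115268024 to 115277101) had the weakest TDG peak of the group, at 4.87-fold (115276865 to 115277189) with a −log10 q of 5.65. The summit held 20 reads (interval 12.2 to 30.9). It lay 9 bases inside the gene's upper end and 123 bases upstream of the start that RefSeq's promoter table gives. In the TDG list 80.4% of peaks had this fold enrichment or a higher one. Sco2 and Fdxr thus stood below the lower quartile of the list by fold enrichment, 4.95. Their partners and relatives Sco1, Fdx1, Fdx2 and Cyp11a1 had no TDG peak, but only 14.8% of all protein-coding genes had one.

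Nfe2l2 (gene ID 18024, chromosome 2, 75675513 to 75704663) encodes NRF2, the transcription factor that turns on antioxidant and detoxifying genes and that KEAP1 marks for degradation. Its start was covered by a TDG peak 732 bases wide (75704371 to 75705102), the widest of the group, at 5.83-fold with 25 reads (interval 16.2 to 36.9). The summit was 37 bases upstream of the start. The second TDG peak (75703458 to 75703725) lay inside the gene, 1108 bases past the start, at 5.21-fold with 19 reads (interval 11.4 to 29.7). Both peaks had intervals that overlapped each other and those of the other TDG peaks here.

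The p53 peak assigned to Nfe2l2 was the stronger of the group's 2 p53 peaks, at 28.6-fold with a −log10 q of 98.8 (75768223 to 75768555). Its summit held 108 reads (interval 88.6 to 130) and ranked 21 of 126. It lay 63720 bases upstream of Nfe2l2 and 63794 bases from Agps on the other side, so the assignment to Nfe2l2 rests on a difference of 74 bases. Agps encodes an enzyme of ether lipid synthesis. The nearest gene of any kind was the noncoding gene Gm34657, 448 bases away, and the nearest TDG summit was the one at the Nfe2l2 start, 63683 bases away. Which gene, if any, this site serves was not tested.

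Ephx1 (gene ID 13849, chromosome 1, 180989556 to 181017569) encodes microsomal epoxide hydrolase, which opens reactive epoxides. It was the 1 member with p53 inside the gene. The p53 peak (181015675 to 181015987) lay 1765 bases past the start, at 18.4-fold and a −log10 q of 51.5. It held 69 reads at the summit (interval 53.7 to 87.3) and ranked 40 of 126. The interval of reads lay below that of the p53 peak near Nfe2l2. No exon table was used, so whether the site is exonic or intronic was not determined. The nearest TDG summit to Ephx1 was 138668 bases from the gene and 164916 bases from the p53 summit.

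Gpx1 (gene ID 14775, chromosome 9, 108339080 to 108340342) encodes a selenium enzyme that reduces hydrogen peroxide with glutathione. The nearest TDG summit, at 5.99-fold with 22 reads, was 7587 bases beyond the gene, inside Usp4. Among the other glutathione peroxidase genes, Gpx2 to Gpx8, a TDG peak was found for Gpx4 alone, at 5.99-fold and 140 bases from a start. The GPX4 enzyme reduces lipid peroxides. A TDG peak at 1 of these genes is near the 14.8% of all protein-coding genes. For the 6 members with no p53 peak, the nearest p53 summit on the chromosome was between 1349322 bases away, for Tigar, and 19680769 bases away, for Sesn1.

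**Figure D2:**
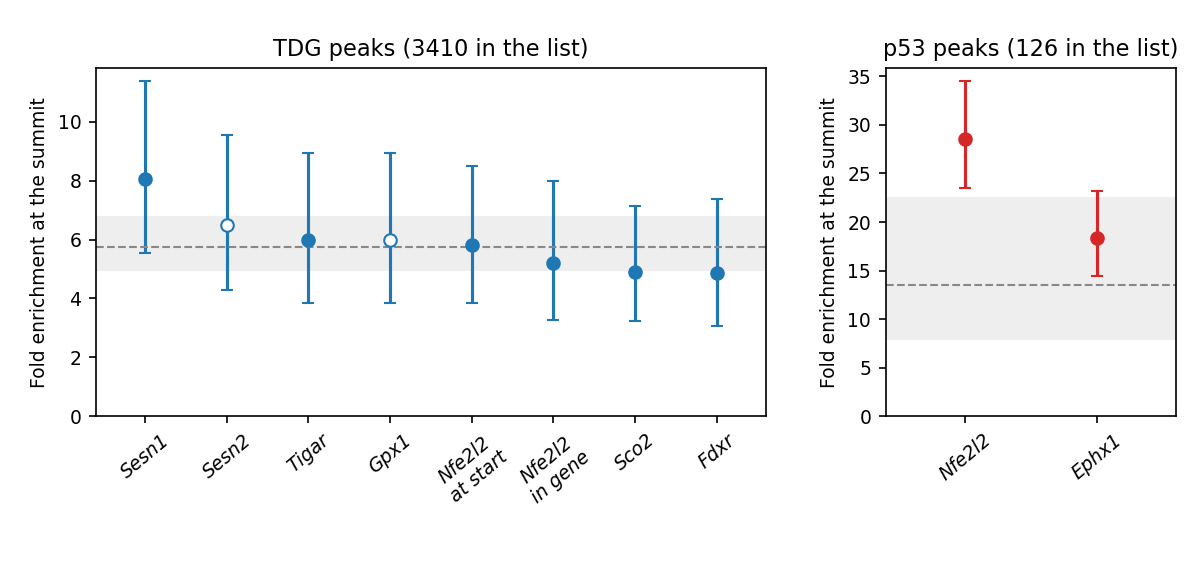
Authors' fold enrichment at the summit of each peak (vertical axis, linear) for TDG on the left and p53 on the right, with 95% intervals from the Poisson counting error of the summit reads. Filled points are peaks counted for the gene, open points the nearest TDG peaks of Sesn2 and Gpx1, the grey band spans the quartiles of the whole list and the dashed line is its median; the TDG intervals all overlap, and the 2 p53 points stand at 28.6 and 18.4.

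By fold enrichment, 3 of the 6 TDG peaks of the group lay between the quartiles of the list, Sesn1 lay above them, and Sco2 and Fdxr lay below. Values ran from 4.87 at Fdxr to 8.07 at Sesn1, against a list median of 5.74 and quartiles of 4.95 and 6.77. Summit reads ran from 19 to 30, and the intervals of all 6 peaks shared the range from 20.2 to 29.7 reads. The order Sesn1, Tigar, Nfe2l2, Sco2 and Fdxr by fold enrichment is therefore not separated by counting error. The median of each gene's highest TDG fold enrichment was 5.83 over the 5 members with a peak and 5.99 over the 3237 protein-coding genes with one. Both p53 peaks lay above the p53 list's median of 13.5, and that near Nfe2l2 also lay above its upper quartile of 22.4. Fold enrichments of the 2 lists are not on one scale and were not compared with each other.

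Most start summits of the group lay where the start summits of the list at large did. Of all TDG peaks, 63.6% had a summit within 1 kb of a start of a protein-coding gene in the promoter table. The median of these lay 56 bases upstream of the start, with quartiles of 158 bases upstream and 57 bases downstream. The start summits of Tigar, Sco2, Nfe2l2 and Fdxr, at 31, 30, 37 and 123 bases upstream, fell between those quartiles. That of Sesn1, at 253 bases upstream, fell outside them. The second Nfe2l2 summit, 1108 bases past the start, was beyond the 1 kb limit and was not part of this comparison.

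TDG density differs between chromosomes, so each member was also set beside its own chromosome. The share of protein-coding genes with a TDG peak by the same rule was 30.9% on chromosome 6 (Tigar), 27.2% on chromosome 15 (Sco2) and 24.3% on chromosome 11 (Fdxr). It was 13.3% on chromosome 10 (Sesn1) and 12.5% on chromosome 2 (Nfe2l2). For the members without a TDG peak it was 17.5% on chromosome 1 (Ephx1), 14.9% on chromosome 9 (Gpx1) and 11.4% on chromosome 4 (Sesn2). Tigar, Sco2 and Fdxr thus lay on chromosomes where TDG peaks were called at more genes than the 14.8% of the whole genome.

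The starts that carried TDG had between 13 and 29 CpG, and those without had between 3 and 24. Sco2 had 29 CpG in the 250 bases before its start, the upstream start of Sesn1 23, Tigar 22, Nfe2l2 18 and Fdxr 13, and all of these carried TDG. Ephx1 had 3 and Gpx1 had 7, and neither had a TDG summit within 1 kb. Sesn2, with 18 CpG, equalled Nfe2l2 but had no summit within 1 kb, and the second Sesn1 start, with 24, exceeded the first. CpG number alone therefore did not separate the starts with TDG from those without.

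Across all 21255 promoters of protein-coding genes in the table, the share with a TDG summit within 1 kb was higher at higher CpG number. It was 0.605% at 0 to 2 CpG, 2.32% at 3 to 5, 8.71% at 6 to 10, 18.2% at 11 to 15, 25.3% at 16 to 20 and 26.2% at 21 or more. The median was 19 CpG for the 2770 promoters with TDG and 7 for the 18485 without. This is a description across promoters of 1 library, in which neighbouring promoters and several starts of a gene can share a peak. The Ephx1 and Gpx1 starts fell in classes where TDG was found at 2.32% and 8.71% of promoters, and the starts of the 5 genes with TDG in classes at 18.2 to 26.2%. Among the 8 genes, 6 had 13 or more CpG before their start, so the 14.8% of all genes, which takes in many starts with few CpG, is not a share for genes of like promoters.

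**Figure D3:**
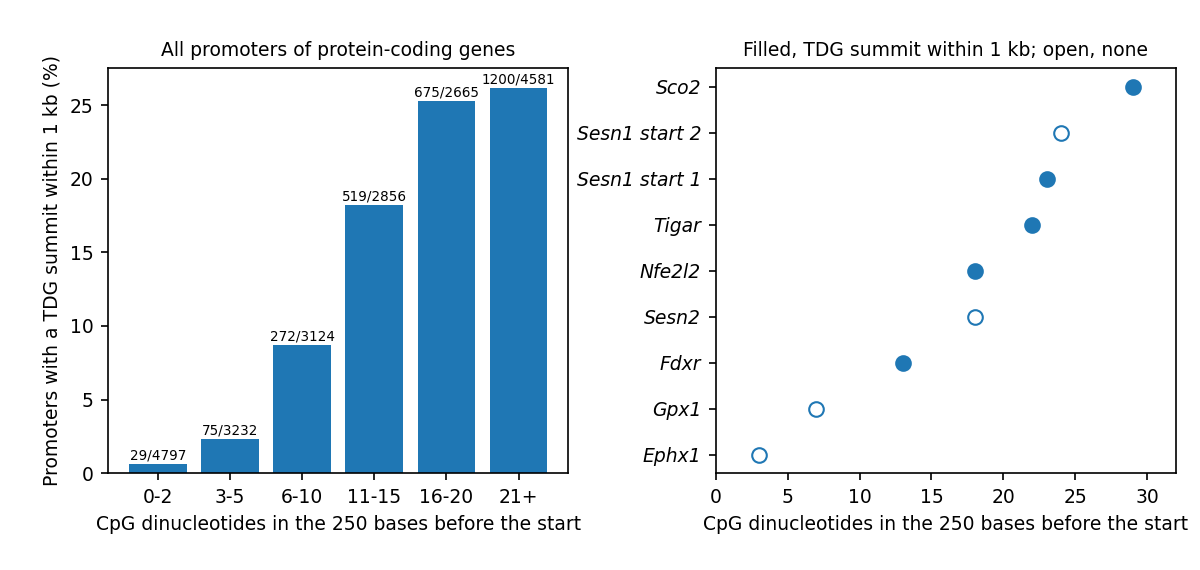
Left, the percentage of promoters with a TDG summit within 1 kb of the start (vertical axis), by the number of CpG in the 250 bases before it, with counts above the bars; it runs from 0.605% to 26.2%. Right, the CpG number of each start of the 8 genes (horizontal axis), filled where a TDG summit lay within 1 kb; Sesn2 and the second Sesn1 start are open at 18 and 24 CpG, beside filled starts of like number.

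Short motifs were searched on both strands of the same 250 bases. A GC box (GGGCGG), the core of sites for Sp1-type factors, occurred in 42.6% of all promoters, in 71.7% of those with TDG and in 38.3% of those without. All 5 starts with TDG in this group held at least 1, as did the second Sesn1 start and Sesn2, whereas Ephx1 and Gpx1 held none. The GC box contains a CpG, so the counts are not independent. The CCAAT box (CCAAT, in 35.4% of promoters, 41.9% of those with TDG and 34.4% of those without) was found 3 times at Tigar, 2 times at Sesn2 and once each at both Sesn1 starts, Fdxr and Ephx1. The core of the NRF2 element (TGACNNNGC, in 10.4%, and in 13.6% with TDG and 9.98% without) was found at Nfe2l2 and at Sesn2, 232 to 240 and 28 to 36 bases before the start. An E-box (CACGTG, in 6.63%, and in 8.99% with TDG and 6.28% without) was found at none of the 8 genes. An Ets core (CCGGAA, in 14.99%, and in 25.6% with TDG and 13.4% without) was found at Fdxr and Nfe2l2. The p53 decamer consensus (RRRCWWGYYY) is 1 of the 2 decamers of a full p53 site. In it R is A or G, W is A or T and Y is C or T. The single decamer was found in 6.31% of promoters, 5.85% of those with TDG and 6.38% of those without. It occurred at the second Sesn1 start, 164 to 173 bases before it, where no p53 peak was called. No match to one motif overlapped a match to another in these windows. These matches are letters in a window, not shown sites, and the p53 peaks of Ephx1 and Nfe2l2 lay outside the windows.

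The wider pathways were followed in 4 further gene lists, counted by the same rules. The lists share some genes. Sesn3, for instance, counts with its TDG peak both among the genes linked to p53 and among the paralogues of the members. Here and below, the share of all genes was not matched to the lists for CpG number. Of 24 other metabolic and redox genes linked to p53, 7 (29.2%) had a TDG peak, against 14.8% of all genes. The highest were Gamt (9.11-fold), for creatine synthesis, Ddit4 (7.81-fold), which like the sestrins restrains mTORC1, Sod2 (7.03-fold), the mitochondrial superoxide dismutase, and Hk2 (6.48-fold), a hexokinase. Of the 24, 1 had a p53 peak, against 0.512% of all genes. It was Trp53inp1 (39.6-fold), which is also among the 34 p53 targets described below. Neither Gls2, Cat, Aldh4a1 nor Dram1 had a peak of either kind.

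Of 20 partners and targets of NRF2, 3 had a TDG peak, a share near the 14.8% of all genes. They were Maff (5.99-fold) and Mafk (5.47-fold), which encode small MAF partners of NRF2, and the thioredoxin gene Txn1 (5.33-fold). The classic targets Nqo1, Hmox1, Gclc and Gclm and the inhibitor gene Keap1 had none, and no gene of the list had a p53 peak, against 0.512% of all genes.

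Of 25 genes of the GATOR, Rag, AMPK and mTORC1 pathway through which sestrins act, 5 had a TDG peak, against 14.8% of all genes, and none had a p53 peak, against 0.512%. With so few genes these counts are near the shares of all genes. Rheb (8.07-fold), the activator of mTORC1, had the same fold enrichment and number of reads as Sesn1. Mios (7.10-fold) encodes a subunit of GATOR2, the complex that sestrins bind, Rraga (6.25-fold) a Rag GTPase and Castor1 (6.06-fold) an arginine sensor. Of 22 paralogues and redox partners of the members, 4 (18.2%, near the 14.8% of all genes) had a TDG peak, the 3 named above and Nfe2l1 (5.73-fold). None had a p53 peak, against 0.512% of all genes.

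The 8 genes were set beside 34 p53 targets of arrest, death, repair and feedback, without a test of the difference. Of the 34, 15 (44.1%) had a p53 peak and 14 (41.2%) a TDG peak, against 2 and 5 of the 8. Among all protein-coding genes the shares were 0.512% for p53 and 14.8% for TDG. The lists of the 34 and of the 24 share 1 gene, Trp53inp1. Peaks of both kinds were present at 6 of the 34, at 1 of the 8 and at 0.142% of all protein-coding genes. These counts do not ask how close the peaks lie. At Nfe2l2, the 1 of the 8, the p53 summit was 63683 bases from the nearest TDG summit. Among the 34, the peaks overlapped at Ccng1, Trp53inp1 and Btg2 and did not at Cdkn1a, Ckap2 and Plk2. The targets with p53 were Cdkn1a, Mdm2, Ccng1, Bbc3, Bax, Phlda3, Zmat3, Trp53inp1, Btg2, Aen, Rps27l, Psrc1, Ckap2, Plk2 and Rap2b. The highest TDG peaks among the 34 were at Sertad1 (8.33-fold), Cdkn1a (7.23-fold), Gadd45a (6.67-fold) and Btg2 (6.66-fold), a range that the Sesn1 peak falls within.

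**Figure D4:**
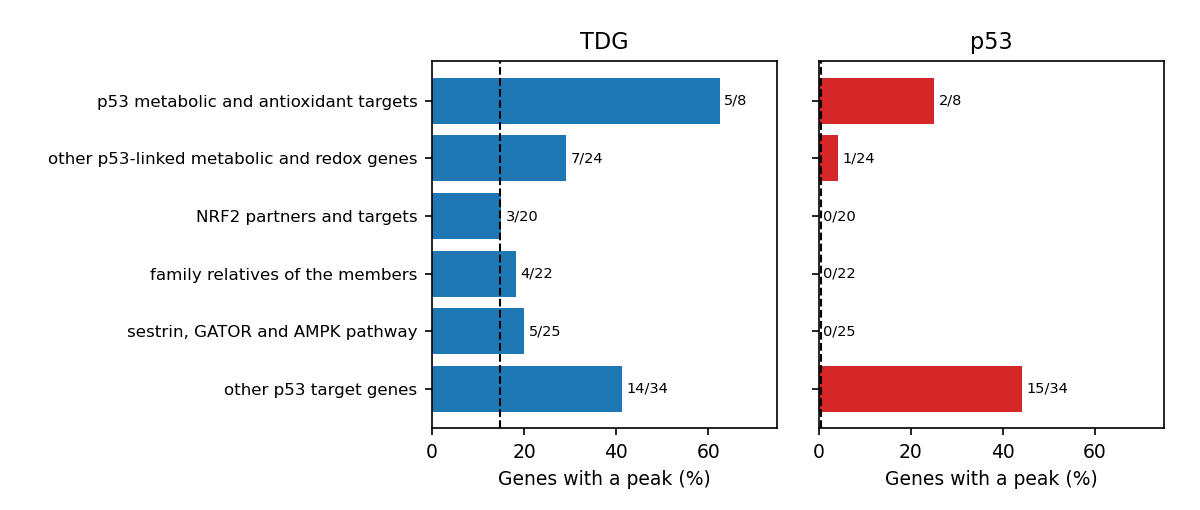
Percentage of genes with a TDG peak (left) and a p53 peak (right) in each gene list, with the number of genes with a peak of the number in the list; dashed lines mark all protein-coding genes, at 14.8% and 0.512%. The 8 metabolic and antioxidant targets have TDG at 5 of 8 and p53 at 2 of 8, and the lists of NRF2, GATOR and AMPK, and family genes have no p53 peak.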

How the data were processed

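ChIP-seq peak lists of 2 B16 libraries were used. Per the labels' protocols, chromatin was crosslinked in 1% formaldehyde (10 min) and sonicated to fragments near 300 bp. The submitters' processing notes name Trim Galore, Bowtie2, Picard, deepTools, MACS2, ChIPseeker and mm10 with no version or role. Not given in the sources used here are the control and the threshold. For each peak the authors deposited positions, a score (the −log10 q times 10, truncated, in 3410 of 3410 and 126 of 126 peaks), a fold enrichment ratio, and −log10 p and −log10 q values of the summit. Summit reads were recovered by solving fold enrichment and −log10 p together under the MACS2 formulas, which add 1 to summit and background in the ratio. The most frequent background was taken as genome-wide (2.558 reads for TDG and 2.028 for p53). Backgrounds are given in reads multiplied by the scale named below, and summit reads are given before that scale. Recovered summits were whole numbers of reads, within 0.05, in 100% (TDG) and 99.2% (p53) of peaks. Where several solutions existed, that at the genome-wide background was kept, or else that nearest to whole reads, after a scale of 0.924 (TDG) or 0.792 (p53) on the reads. The scale was itself chosen to give the most whole numbers, so their share is not an independent check of the recovery. The assignment by the TDG rule and the recovery were tested on simulated data, and the assignment by the p53 rule was not.

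Genes and starts came from RefSeq tables of GRCm38.p6. All 8 members matched, as did every name of the other lists. Of 21887 protein-coding genes, 17492 had a start in the promoter table. Python 3.11.15, pandas 2.3.3, NumPy 2.4.6 and SciPy 1.17.1 were used. No test was run, because each antibody had 1 library, and lists are given by counts beside the share of all genes. Named genes were all members, every gene of the other lists with a p53 peak, and up to 4 with a TDG peak in each list by fold enrichment (genes named for having no peak were chosen after their values were seen). The members and lists were chosen with earlier results of these data known.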

Additional observations from a re-analysis of the deposited data

How the results depend on the processing

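Of 22 recounts under other settings, for the members and for the other lists, 17 stayed within 1.5 times the main count. The 3 kb window and the any-base rule take in every gene of the main rule, so they could not lower a count. The 5 members with a TDG peak were the same genes with a 3 kb window, with gene ends only, with transcription starts only, with a −log10 q of at least 5 and with any base of the peak (15.8%, 12.3%, 10.9%, 13.2% and 14.9% of all genes, in that order). The 10.9% counts genes with no start in the promoter table as having no peak. Among genes with a start the share was 13.6%. The count fell to 3 (Nfe2l2, Sesn1 and Tigar) when peaks below the list's median fold enrichment were dropped, where 7.96% of all genes had one. The 2 members with a p53 peak became 1, Ephx1, with a gene end within 10 kb, with the TDG rule, or with the nearest end among all annotated genes (0.489%, 0.292% and 0.338% of all genes), since the peak assigned to Nfe2l2 lies far from it and closer to a noncoding gene. The 1 member with both kinds became 0 when the peaks had to overlap by at least 1 base. No paired analysis was possible because each group has 1 library. Reads at the TDG summits of the members were 19 to 30, which limits how finely their strengths can be ranked.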
